A study of Mus musculus with 8 samples.

Results

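The genes described here are 10 members of the growth hormone and insulin-like growth factor (IGF) axis of the liver, out of 12393 genes measured. They are the growth hormone receptor gene Ghr, its signal transducer Stat5b, the feedback inhibitors Socs2 and Cish, the hormone Igf1, its serum partner Igfals and the binding proteins Igfbp1, Igfbp2, Igfbp3 and Igfbp4. A probe set was counted for a member when the array annotation named that gene and no other, which gave 21 probe sets. The one with the highest mean over all arrays stands for the gene, and 5 members have further probe sets that served as a check. The 8 Affymetrix arrays carry liver RNA of C57BL mice of 4 genotypes, with 2 arrays each. The genotypes were wild-type mice, mice without the small heterodimer partner SHP (SHP-/-), mice without leptin (OB-/-) and mice without both (OB-/-/SHP-/-). SHP, encoded by Nr0b2, is a nuclear receptor that represses other nuclear receptors, and leptin is the fat-derived hormone whose loss causes overeating and obesity. All mice ate standard chow. The sources used here do not give their age or sex, or whether each array came from 1 animal or a pool. The p-values therefore rest on the spread between the samples hybridised, and that spread may be technical. Both knockouts are named as whole-animal genotypes, and no tissue-specific driver is mentioned.

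Growth hormone from the pituitary binds its receptor on hepatocytes, which activates the kinase JAK2 and, through it, the transcription factor STAT5B. STAT5B switches on Igf1 and Igfals, whose products travel in blood as a complex with IGF-binding protein 3, and also Socs2 and Cish, whose products damp the receptor's own signal. The binding proteins set how much IGF-I reaches its receptor. Igfbp1 is repressed by insulin and rises in fasting, and Igfbp2 is known in mice as a liver gene that leptin raises.

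Values are on a log2 scale, on which 1 unit is a 2-fold difference, and levels of different genes are not compared, because probe sets differ in brightness. Array medians lay between 5.45 and 5.56, and the median standard error (SE) of a difference between genotypes was 0.15. The 5 measured hepatocyte markers summed to between 15.64 and 15.76 on every array, a sum set mostly by the brightest of them, Alb, Apoa1 and Ttr. Of these markers 1 fell in OB-/- against wild-type, Cps1 (-0.51 ± 0.14, adjusted p = 0.0250 in limma), where 9.36% of all genes fell. Nr0b2 read 8.74 and 8.71 on the wild-type arrays, 7.78 and 8.31 on the SHP-/- arrays, 8.01 and 8.01 on the OB-/- arrays and 7.11 and 6.66 on the OB-/-/SHP-/- arrays. Its mean was lower in each SHP-null genotype than in the genotype with SHP and the same leptin status, but a clear signal remained, and whether its probe set lies in the deleted part is not known here. Some arrays stood apart. Xist, the RNA of the inactive X chromosome of females, read 7.41 in OB-/- replicate 1 and 4.31 to 4.70 elsewhere, while the Y-linked Eif2s3y read 6.57 to 7.50 on every array. Another Y-linked gene, Kdm5d, read 5.23 to 5.46 on the leptin-intact and 4.21 to 4.45 on the leptin-null arrays, and it fell in both leptin comparisons (adjusted p = 3.4e-04 without and 0.00187 with SHP loss). The part of sex in the results below was not tested. The immediate-early genes Fos and Egr1 read 11.95 and 11.38 in SHP-/- replicate 1, against 6.98 and 9.12 in SHP-/- replicate 2. For Gapdh, the reading near the 3' end minus that near the 5' end, an offset that grows as RNA degrades, was 0.79 and 1.00 on the wild-type arrays, 0.19 and 0.35 on the SHP-/- arrays and -0.07 to 0.11 on the leptin-null ones. For Actb the offset was 1.89 and 1.87 on the wild-type arrays, 1.25 and 1.35 on the SHP-/- arrays and 0.77 to 0.93 on the leptin-null ones. Both offsets moved with genotype, so leaving out arrays cannot remove them. The part of RNA quality in the leptin and SHP differences below was not tested. Xist, Fos and Egr1 each stood out on 1 array, which the alternatives leave out.

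By the brightest probe set of each gene, members were called in both leptin comparisons. In SHP-/- against wild-type and in OB-/-/SHP-/- against OB-/- 0 of 10 members were called. There 0.323% and 2.14% of all genes were called, so these counts are near the background. In OB-/- against wild-type, 4 members fell (Igfbp2, Socs2, Cish and Igfbp1) and 1 rose (Igfbp3), at an adjusted p below 0.05 in limma. That is 5 of 10 members, where 16.9% of all genes were called. In OB-/-/SHP-/- against SHP-/-, 5 members fell (Igfbp2, Socs2, Igfals, Cish and Igf1) and 0 rose, where 10.6% of all genes were called. Its means come from other arrays than those of the first comparison. The spread of each gene, however, was estimated over all 8 arrays for both, so the tests are not separate. Igfbp2, Socs2 and Cish fell in both, as did 3.88% of all genes. The median difference of the members was -0.47 in the first and -0.41 in the second comparison, where the medians of all genes were -0.01 and 0.03. On 6 members, Igf1, Igfals, Igfbp2, Igfbp4, Socs2 and Cish, each of the 4 leptin-null arrays read below each of the 4 leptin-intact ones, a separation that 13.3% of all genes showed in this direction.

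**Figure D1:**
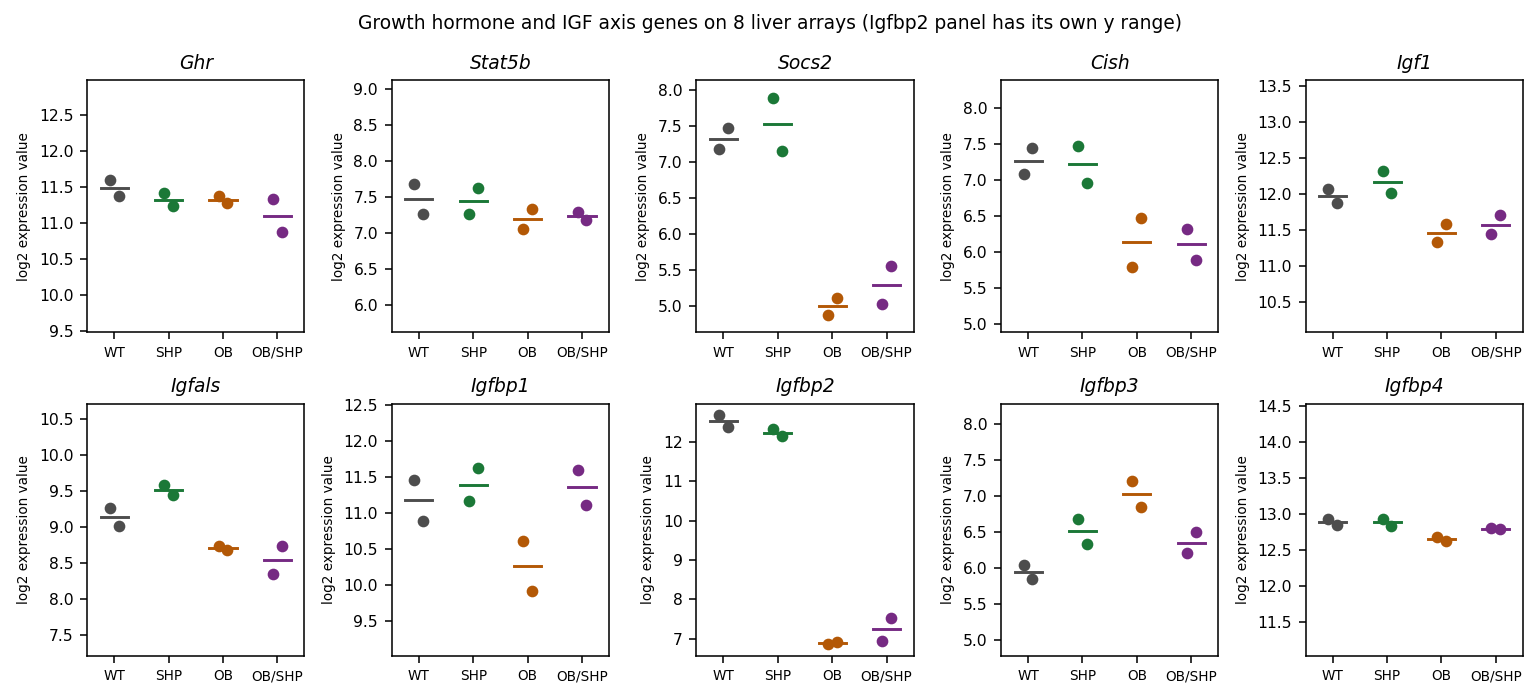
Each panel plots the log2 expression value of 1 gene (y axis) on the 2 arrays of each genotype (x axis: WT, wild-type; SHP, SHP-/-; OB, OB-/-; OB/SHP, OB-/-/SHP-/-), with points for arrays and bars for genotype means. All panels but that of Igfbp2 span the same range of log2 units; Socs2, Cish and Igfbp2 are low in both leptin-null genotypes, Igfbp1 is low in OB-/- alone, and Ghr and Stat5b differ little.

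Ghr, the receptor, read 11.59 and 11.38 on the wild-type arrays, 11.41 and 11.23 on the SHP-/- arrays, 11.37 and 11.28 on the OB-/- arrays and 11.33 and 10.87 on the OB-/-/SHP-/- arrays. Its genotype means spanned 0.38, and it passed in none of the 5 comparisons. The dimmest of the 3 Ghr probe sets read 8.08 and 7.58 in wild-type and 8.17 to 8.73 on the other 6 arrays, so it was lowest in wild-type, where the brightest probe set was highest. Its difference between OB-/- and wild-type, 0.71 ± 0.22, did not pass (adjusted p = 0.0545, limma over all probe sets).

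Stat5b, the transcription factor downstream of the receptor, read 7.68 and 7.26 on the wild-type arrays, 7.27 and 7.62 on the SHP-/- arrays, 7.06 and 7.34 on the OB-/- arrays and 7.29 and 7.18 on the OB-/-/SHP-/- arrays by its brighter probe set, with overlapping arrays in all 4 pairwise comparisons. The dimmer probe set differed. It read 5.82 and 5.70 in wild-type and between 6.64 and 6.71 on the other 6 arrays, and it rose by 0.89 ± 0.12 in SHP-/- (adjusted p = 0.0167) and by 0.91 ± 0.12 in OB-/- (adjusted p = 9.5e-04) against wild-type, where 0.442% and 15.9% of all probe sets were called. Both wild-type arrays also had the largest Gapdh offsets, and the part of RNA quality in this split was not tested. The probe sets of Stat5b therefore disagree, and no direction is given for the gene.

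The feedback inhibitors were low in leptin-null liver. Socs2, which marks growth hormone receptor complexes for degradation, read 7.19 and 7.48 on the wild-type arrays, 7.90 and 7.17 on the SHP-/- arrays, 4.89 and 5.12 on the OB-/- arrays and 5.04 and 5.56 on the OB-/-/SHP-/- arrays. All leptin-null arrays were more than 1 unit below all leptin-intact ones. The leptin-null readings lie close to 4.83, the 40th percentile of probe set means, so the size of the fall is uncertain. Relative to wild-type, Socs2 fell 5.02-fold in OB-/- (-2.33 ± 0.24, adjusted p = 1.1e-04) and 4.69-fold in OB-/-/SHP-/- against SHP-/- (-2.23 ± 0.24, adjusted p = 2.0e-04). Its other probe set differed by -2.23 and -2.15 in these comparisons.

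Cish, a related inhibitor that binds the activated receptor, read 7.09 and 7.45 on the wild-type arrays, 7.48 and 6.96 on the SHP-/- arrays, 5.79 and 6.48 on the OB-/- arrays and 6.33 and 5.89 on the OB-/-/SHP-/- arrays. The leptin-null arrays again lay below the leptin-intact ones, but the arrays of a genotype were up to 0.68 apart. Relative to wild-type, Cish fell 2.19-fold in OB-/- (-1.13 ± 0.25, adjusted p = 0.0105) and 2.17-fold in OB-/-/SHP-/- against SHP-/- (-1.11 ± 0.25, adjusted p = 0.0179). The first call was lost without wild-type replicate 2 (adjusted p = 0.0958) or OB-/- replicate 1 (adjusted p = 0.105), and the second without SHP-/- replicate 1 (adjusted p = 0.0919) or OB-/-/SHP-/- replicate 2 (adjusted p = 0.128). Without both OB-/- replicate 1 and SHP-/- replicate 1, which stood apart, neither passed (adjusted p = 0.0668 and 0.0686).

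STAT5 binds the palindrome TTCNNNGAA. The promoter table of RefSeq genes (GRCm38.p6), with windows from 250 bases before to 50 bases after each annotated start, held 9 of the 10 members in 14 windows, Socs2 being the other. The palindrome, which reads alike on both strands, was present in 8.3% of all 32851 windows and in 3 windows of the members, 1 of Cish and 2 of Igfals, which are shown because each gene fell in at least 1 leptin comparison. Capitals mark the matches, and positions count from 1 at the annotated start with negative numbers before it. The Cish stretch runs from position -75 to 24 (chr9:107296584-107296682, plus strand), with matches at positions 1 and 12 that do not overlap. The first Igfals stretch runs from -250 to -151 (chr17:24877594-24877693, plus strand), and the second, at another annotated start, from -69 to -40 (chr17:24878162-24878191, plus strand).
Cish: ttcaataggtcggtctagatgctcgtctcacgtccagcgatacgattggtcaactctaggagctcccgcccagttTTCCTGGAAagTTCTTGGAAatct
Igfals, first start: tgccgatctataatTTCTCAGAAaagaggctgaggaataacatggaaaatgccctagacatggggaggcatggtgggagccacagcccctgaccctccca
Igfals, second start: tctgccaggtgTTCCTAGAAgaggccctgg
Cish thus holds 2 copies 2 bases apart, and the windows of Igf1, Ghr, Stat5b and the Igfbp genes hold no copy. A match describes the letters only.

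Igf1 encodes IGF-I, the hormone that carries much of the growth effect of growth hormone. It read 12.06 and 11.87 on the wild-type arrays, 12.32 and 12.01 on the SHP-/- arrays, 11.33 and 11.58 on the OB-/- arrays and 11.44 and 11.70 on the OB-/-/SHP-/- arrays. The leptin-null arrays were all lower than the leptin-intact ones, with the nearest arrays, OB-/-/SHP-/- replicate 2 and wild-type replicate 2, 0.17 apart. Igf1 fell 1.51-fold in OB-/-/SHP-/- against SHP-/- (-0.60 ± 0.17, adjusted p = 0.0416), a call that was lost without any 1 array other than SHP-/- replicate 2 (adjusted p up to 0.221), with quantile normalisation (adjusted p = 0.0544), with every probe set tested by itself (adjusted p = 0.0511) or with only the 4 arrays compared (adjusted p = 0.0957). In OB-/- against wild-type the difference of -0.51 ± 0.17 did not pass (adjusted p = 0.0567). The other 2 probe sets of Igf1 differed by -0.25 and -0.80 in the latter comparison and by -0.76 and -0.86 in the former, so all 3 pointed down.

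Igfals, the acid-labile subunit that holds IGF-I and IGF-binding protein 3 in a long-lived serum complex, read 9.27 and 9.02 on the wild-type arrays, 9.59 and 9.45 on the SHP-/- arrays, 8.74 and 8.69 on the OB-/- arrays and 8.35 and 8.74 on the OB-/-/SHP-/- arrays. It was highest on both SHP-/- arrays, and the leptin-null genotypes overlapped each other. Igfals fell 1.96-fold in OB-/-/SHP-/- against SHP-/- (-0.97 ± 0.16, adjusted p = 0.00382), and this call held with any single array left out (adjusted p up to 0.0219). In OB-/- against wild-type it differed by -0.43 ± 0.16, which did not pass (adjusted p = 0.0980). The interaction, which tests whether these differences are unequal, was -0.54 ± 0.23 and did not pass either (adjusted p = 0.554).

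**Figure D2:**
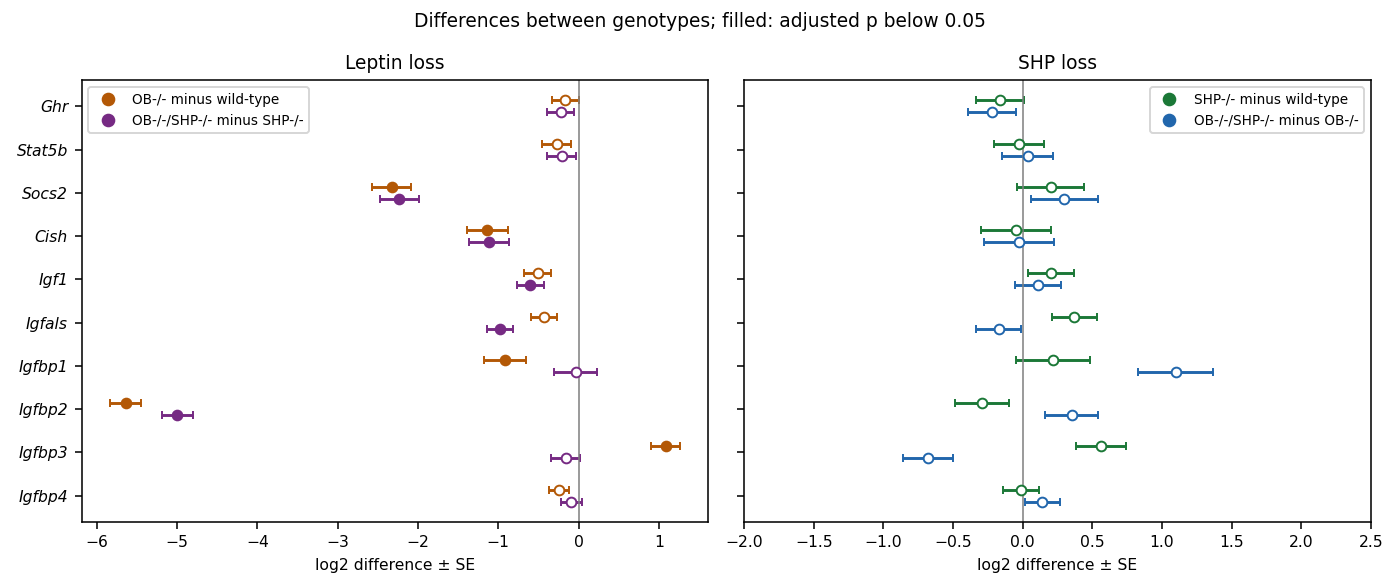
The log2 difference (x axis) with its SE is plotted for the 10 members (y axis), for both leptin comparisons at left and both SHP comparisons at right, and filled points have an adjusted p below 0.05. The points of Igfbp2 and Socs2 lie far left of 0 in both leptin comparisons, those of Igfbp1 and Igfbp3 differ between them, and no point at right is filled; the x axes differ in range.

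Among the binding proteins Igfbp2 moved most. It read 12.69 and 12.38 on the wild-type arrays and 12.34 and 12.15 on the SHP-/- arrays, against 6.86 and 6.92 on the OB-/- arrays and 6.95 and 7.54 on the OB-/-/SHP-/- arrays. No leptin-null array came within 4 units of a leptin-intact one. Igfbp2 fell 49.9-fold in OB-/- against wild-type (-5.64 ± 0.19, adjusted p = 1.4e-08), the third largest fall of all genes in limma, and 32.0-fold in OB-/-/SHP-/- against SHP-/- (-5.00 ± 0.19, adjusted p = 4.3e-08), again the third largest. With any single array left out the first difference stayed between -5.80 and -5.48 and the second between -5.29 and -4.71.

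Igfbp1, the insulin-repressed binding protein, followed another order. It read 11.46 and 10.90 on the wild-type arrays, 11.17 and 11.63 on the SHP-/- arrays, 10.61 and 9.92 on the OB-/- arrays and 11.61 and 11.12 on the OB-/-/SHP-/- arrays. OB-/- alone stood low, and the other 3 genotypes overlapped. Igfbp1 fell 1.89-fold in OB-/- against wild-type (-0.92 ± 0.27, adjusted p = 0.0369), a call lost without wild-type replicate 1 (adjusted p = 0.284) or OB-/- replicate 2 (adjusted p = 0.292). Between OB-/-/SHP-/- and OB-/- the difference was 1.10 ± 0.27, with separate arrays, and it did not pass (adjusted p = 0.0705). The interaction of 0.88 ± 0.38 did not pass (adjusted p = 0.558).

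The sequence CAAAACA, the insulin response sequence bound by FOXO factors, occurred on either strand in 6.28% of all promoter windows and in the single window of Igfbp1, and in no window of another member. The stretch runs from position -160 to -61 (GRCm38.p6, chr11:7197627-7197726, plus strand), with the match, in capitals, at -108.
Igfbp1: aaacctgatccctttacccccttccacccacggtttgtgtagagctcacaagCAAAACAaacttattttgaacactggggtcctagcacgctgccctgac
Ppargc1a, a coactivator that rises in the fasted liver, was 1.25 ± 0.15 lower on the OB-/- than the wild-type arrays (adjusted p = 3.3e-04) and 0.56 ± 0.15 higher on the OB-/-/SHP-/- than the OB-/- arrays, which did not pass (adjusted p = 0.114). Pck1, a gluconeogenic enzyme, lay between 11.75 and 12.35 on all arrays and passed in no comparison. The sources used here do not say whether the mice had fasted.

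Igfbp3, whose product carries most IGF-I in blood, was the member that rose. It read 6.04 and 5.85 on the wild-type arrays, 6.68 and 6.34 on the SHP-/- arrays, 7.21 and 6.85 on the OB-/- arrays and 6.20 and 6.50 on the OB-/-/SHP-/- arrays. OB-/- was highest and wild-type lowest, each without overlap with the other genotypes, and SHP-/- and OB-/-/SHP-/- overlapped. Relative to wild-type, Igfbp3 rose 2.12-fold in OB-/- (1.08 ± 0.18, adjusted p = 0.00209), and the call held with any single array left out, with a difference of 0.90 without OB-/- replicate 1, the array with high Xist. The difference of 0.57 ± 0.18 between SHP-/- and wild-type (adjusted p = 0.392) and that of -0.68 ± 0.18 between OB-/-/SHP-/- and OB-/- (adjusted p = 0.0999) did not pass. The interaction was -1.24 ± 0.25 and did not pass (adjusted p = 0.0649), although it did without SHP-/- replicate 2 (-1.42, adjusted p = 0.0292).

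In rat liver Igfbp3 is made chiefly by cells other than hepatocytes, so marker levels of such cells are given beside it. Of 12 macrophage markers, 11 rose and 0 fell in OB-/- against wild-type, where 7.58% of all genes rose. In OB-/-/SHP-/- against OB-/-, where 1.26% of all genes rose, 2 of these markers rose and 0 fell. Their summed level was 10.56 to 10.60 in wild-type, 11.38 to 11.88 in SHP-/-, 12.10 to 12.12 on the OB-/- arrays and 12.22 to 12.65 on the OB-/-/SHP-/- arrays, and 0 of the 12 lay below 5 on all arrays. The median marker differed by -0.02 between OB-/-/SHP-/- and OB-/-, and the high sums of OB-/-/SHP-/- rest largely on Mpeg1, a macrophage pore-forming protein gene, which read 10.36 and 10.75 there and 8.94 and 8.78 in OB-/-. Without Mpeg1, a choice made after its values were seen, the sums were 10.31 to 10.39 in wild-type, 10.82 to 11.61 in SHP-/-, 11.93 to 11.97 on the OB-/- arrays and 11.75 to 12.20 on the OB-/-/SHP-/- arrays, so the leptin-null genotypes overlapped. Like Igfbp3, the macrophage level was lowest in wild-type. The summed level of 10 endothelial markers was 10.35 to 10.71, 10.28 to 10.72, 10.84 to 10.90 and finally 10.57 to 10.69 in the same order of genotypes, with 4 rising and 0 falling in OB-/- against wild-type. That of 10 stellate cell markers was 10.88 to 10.90, 10.90 to 11.11, 11.13 to 11.16 and 11.07 to 11.17, with 3 rising and 0 falling in OB-/- against wild-type. It too was lowest in wild-type, by a narrow margin, and the brightest marker, Dcn, weighs most in it. In OB-/-/SHP-/- against OB-/-, where 2.14% of all genes were called, 0 endothelial markers passed, with a median difference of -0.26. There 0 stellate markers rose and 1 fell, Col3a1 (-1.19 ± 0.21, adjusted p = 0.0122 in limma), with a list median of -0.23. Pancreas markers, of which 5 were measured, summed to 8.94 to 9.53 in OB-/- and to 7.69 to 8.34 elsewhere. In OB-/- against wild-type 3 of them rose and 1 fell, where 7.58% and 9.36% of all genes did. In whole liver, fewer cells of a type and less RNA per cell cannot be told apart, and the part of these cells in the level of Igfbp3 was not tested.

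**Figure D3:**
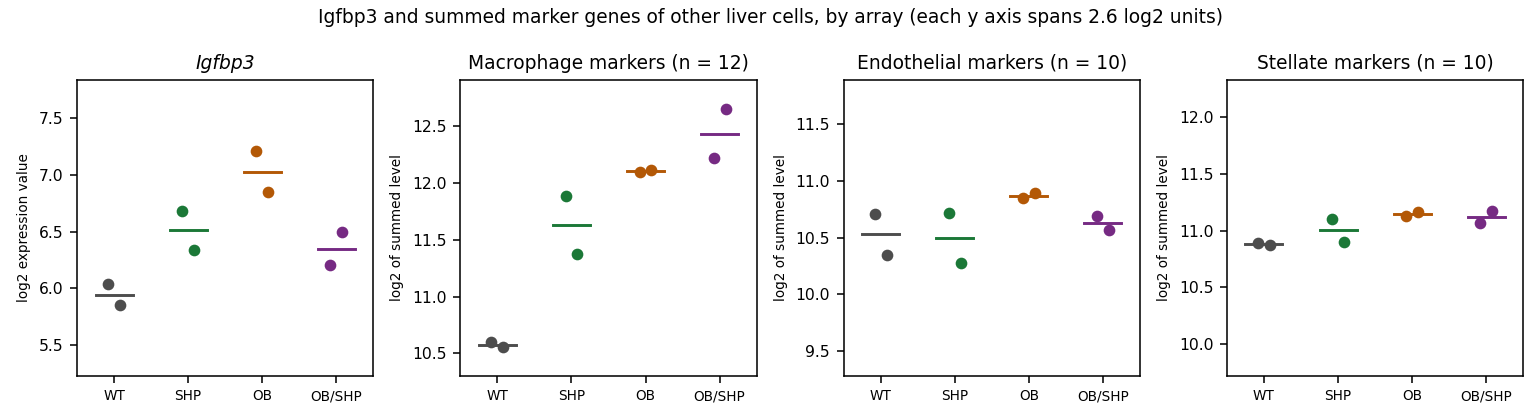
The log2 value of Igfbp3 and the log2 of the summed level of 3 marker lists (y axes, each spanning the same number of log2 units) are plotted for the 2 arrays of each genotype (x axis, labelled WT, SHP, OB and OB/SHP), with bars for means. Igfbp3 and the endothelial list are highest in OB-/-. Igfbp3, the macrophage list and, by a narrow margin, the stellate list are lowest in wild-type. The height of the macrophage list in OB-/-/SHP-/- rests largely on Mpeg1.

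Igfbp4, a binding protein that is mostly inhibitory to IGF-I, read 12.94 and 12.85 on the wild-type arrays, 12.93 and 12.84 on the SHP-/- arrays, 12.68 and 12.63 on the OB-/- arrays and 12.80 and 12.79 on the OB-/-/SHP-/- arrays. The leptin-null arrays were all lower, but its genotype means spanned 0.24 and it passed in no comparison. Of its 6 probe sets, 1 passed in a comparison, a difference of -0.46 ± 0.13 between OB-/- and wild-type (adjusted p = 0.0305). Its sequences may be shared with other transcripts, as its x_at suffix marks.

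**Figure D4:**
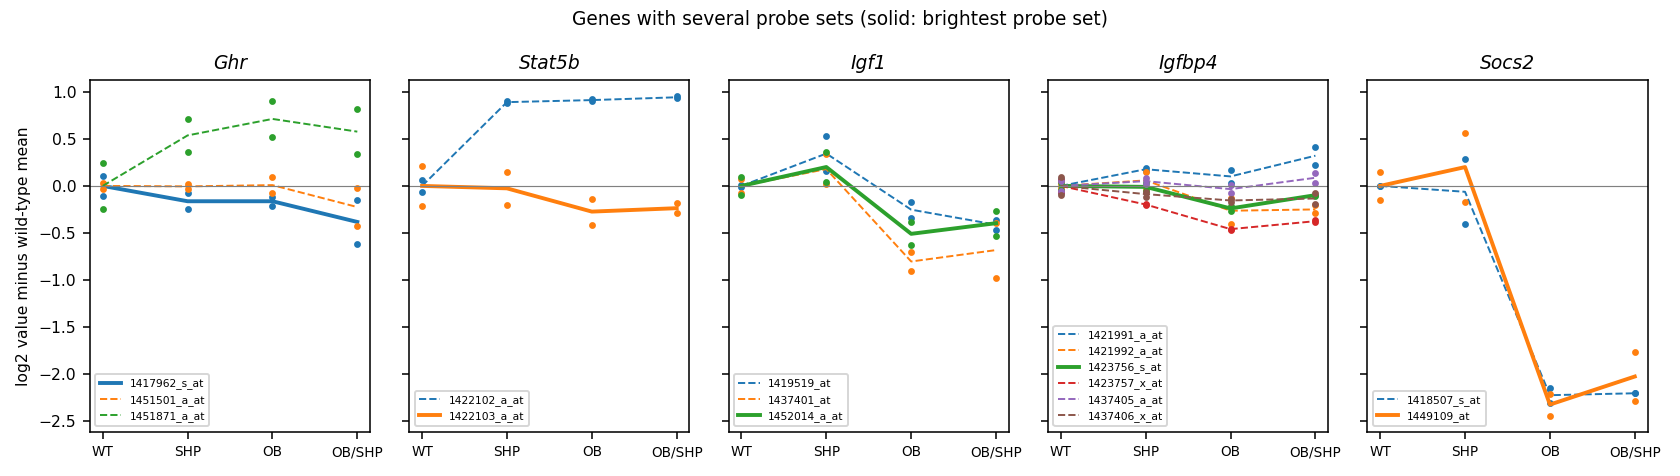
For the 5 members with several probe sets, genotype means (lines) and single arrays (points) are plotted as log2 values minus the wild-type mean of the same probe set (y axis) against genotype (x axis, labelled WT, SHP, OB and OB/SHP). Both Socs2 probe sets and all 3 of Igf1 fall together in the leptin-null genotypes, while 1 probe set of Stat5b is low in wild-type alone. In Ghr 1 probe set is lowest in wild-type, by a narrow margin between the nearest arrays, and it passed in no comparison.

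The loss of SHP was compared with and without leptin. In SHP-/- against wild-type 0 of 10 members passed in limma, with 2 at an unadjusted p below 0.05, Igfbp3 and Igfals, where 0.323% of all genes passed and 7.12% had such an unadjusted p. Igfals differed by 0.37 ± 0.16 (adjusted p = 0.676). The other 8 differed by -0.29 to 0.22, with 95% confidence intervals that lay between -0.71 and 0.81. These values are from the brightest probe sets. The dimmer Stat5b probe set rose by 0.89 ± 0.12 (adjusted p = 0.0167, limma over all probe sets), where 0.442% of all probe sets were called. In OB-/-/SHP-/- against OB-/- 0 of 10 passed, with 2 at an unadjusted p below 0.05, Igfbp1 and Igfbp3, where 2.14% of all genes passed and 11.7% had such an unadjusted p. The other 8 differed by -0.22 to 0.35 with intervals between -0.59 and 0.83. For the interaction 0 of 10 passed and 4 had an unadjusted p below 0.05, where 0.549% of all genes passed and 8.28% had such an unadjusted p. These 4 were Igfbp3, Igfals, Igfbp1 and Igfbp2, the last at 0.64 ± 0.27 (adjusted p = 0.554). These intervals are wide beside most of the differences, so the tests do not show that SHP loss leaves the members alone.

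Further genes of the pathway came from lists of its known parts. Of 20 genes of growth hormone receptor signalling, 16 were measured. In OB-/- against wild-type 0 rose and 5 fell, with a median of -0.22, where 9.36% of all genes fell. Onecut1, a liver transcription factor (-1.26 ± 0.15, adjusted p = 2.3e-04), Bcl6, a repressor that competes with STAT5 at liver genes (-1.41 ± 0.23, adjusted p = 0.00178), Socs3, an inhibitor of cytokine receptors (-1.25 ± 0.22, adjusted p = 0.00286), and Hnf4a, a regulator of hepatocyte genes (-0.76 ± 0.14, adjusted p = 0.00338), led these falls. The direction of Hnf4a turned to 0.14 with the mean of its probe sets. In OB-/-/SHP-/- against SHP-/- 0 rose and 2 fell, Onecut1 (-0.99 ± 0.15, adjusted p = 0.00191) and Socs3 (-1.27 ± 0.22, adjusted p = 0.00424), where 5.62% of all genes fell. In OB-/-/SHP-/- against OB-/- 2 rose, where 1.26% of all genes rose. These were Stat3, a relative of STAT5 that carries the leptin signal in the brain (0.81 ± 0.16, adjusted p = 0.0220), and Bcl6 (1.02 ± 0.23, adjusted p = 0.0454). Stat3 was also the remaining gene that fell in OB-/- against wild-type. It read 9.75 and 9.80 on the wild-type arrays, 9.11 and 8.78 on the OB-/- arrays and 9.85 and 9.66 on the OB-/-/SHP-/- arrays. The Stat3 call was lost without OB-/- replicate 2 or either OB-/-/SHP-/- array (adjusted p up to 0.259), and that of Bcl6 without any of the 4 arrays compared (adjusted p up to 0.301). The Bcl6 call was also lost with the mean of its probe sets (0.61, adjusted p = 0.387) and with every probe set tested by itself (adjusted p = 0.0702).

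Of 16 further genes of IGF ligands, receptors, binding proteins and proteases, 15 were measured. In OB-/- against wild-type 2 rose and 2 fell, where 7.58% and 9.36% of all genes did, so the counts are near the background. Irs2 and Irs1, the docking proteins of the insulin and IGF-I receptors, fell, Irs2 with a difference of -1.79 ± 0.19 (adjusted p = 1.5e-04) and Irs1 with one of -1.28 ± 0.17 (adjusted p = 5.3e-04). Igfbp7, a binding protein with low affinity for IGF-I, rose by 0.80 ± 0.19 (adjusted p = 0.0151), and the insulin receptor gene Insr rose by 0.47 ± 0.13 (adjusted p = 0.0282). The Insr call was lost without any of these 4 arrays, and that of Igfbp7 without wild-type replicate 2 or either OB-/- array (adjusted p up to 0.158 and 0.124). In OB-/-/SHP-/- against SHP-/- 1 rose and 1 fell, again near the background of 4.95% and 5.62%. These were Igfbp7 (0.67 ± 0.19, adjusted p = 0.0467) and Irs1 (-1.11 ± 0.17, adjusted p = 0.00233), and the Igfbp7 call was lost without any array other than SHP-/- replicate 1 (adjusted p up to 0.280). When all probe sets of a gene were averaged, the differences of Igfbp7 shrank to 0.37 (adjusted p = 0.103) and 0.31 (adjusted p = 0.198) and that of Insr to 0.29 (adjusted p = 0.111), and none passed. Irs2 read 7.60 and 7.58 on the wild-type arrays, 6.65 and 7.30 on the SHP-/- arrays, 5.80 and 5.79 on the OB-/- arrays and 6.99 and 6.70 on the OB-/-/SHP-/- arrays, and its rise in OB-/-/SHP-/- against OB-/- was 1.05 ± 0.19 (adjusted p = 0.0163), a call lost without either OB-/- array or OB-/-/SHP-/- replicate 1 (adjusted p up to 0.149). Like Igfbp1, it was lowest on both OB-/- arrays.

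Mouse liver genes that follow the male, pulsed pattern of growth hormone or the female, near-continuous one are also controlled through STAT5B. Of 12 measured genes of the male pattern 9 fell and 0 rose in OB-/- against wild-type, and 6 fell and 0 rose in OB-/-/SHP-/- against SHP-/-, where 9.36% and 5.62% of all genes fell. Of 9 measured genes of the female pattern 6 and 5 rose and 0 fell, where 7.58% and 4.95% of all genes rose. In SHP-/- against wild-type 1 male-pattern gene fell, Ugt2b38 (adjusted p = 0.0191), where 0.323% of all genes were called. Its call was lost without wild-type replicate 1. In OB-/-/SHP-/- against OB-/- 2 male-pattern genes rose, C8b (1.07 ± 0.14, adjusted p = 0.00261) and Cyp4a12a (0.98 ± 0.16, adjusted p = 0.00828). There 1.26% of all genes rose. The Cyp4a12a call was lost without OB-/- replicate 2 or OB-/-/SHP-/- replicate 1. The male-pattern transporter Slco1a1 read 10.49 and 10.44 on the wild-type arrays, 10.11 and 9.67 on the SHP-/- arrays, 4.10 and 3.92 on the OB-/- arrays and 3.85 and 3.42 on the OB-/-/SHP-/- arrays. All 4 leptin-null arrays were low. The steroid dehydrogenase gene Hsd3b5 fell in both leptin comparisons (adjusted p = 8.1e-09 and 1.7e-08), from 8.95 to 10.21 on the leptin-intact to 3.79 to 4.06 on the leptin-null arrays. The oxysterol hydroxylase gene Cyp7b1 differed by -5.37 ± 0.18 (adjusted p = 1.4e-08) and -4.69 ± 0.18 (adjusted p = 4.8e-08). C8b differed by -3.24 ± 0.14 (adjusted p = 1.3e-07) and -2.37 ± 0.14 (adjusted p = 2.5e-06). In the female pattern the sulfotransferase gene Sult2a2 rose in both (adjusted p = 1.0e-08 and 1.1e-08), from 3.31 to 3.98 on the leptin-intact to 11 to 11.70 on the leptin-null arrays. The low readings of Slco1a1, Hsd3b5, Ugt2b38, Sult2a2, Hao2, Sult3a1, Prom1 and Kdm5d lie below 4.83, the 40th percentile of probe set means. They are not shown to be above background, so no size is given for the differences of these genes between 2 genotypes. The interaction of Sult3a1 given below rests on such readings too, and its size is uncertain.

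The genes whose profile over the 8 arrays lay nearest to a member were found by the root mean square difference after centring each gene on its own mean, for the 5 members whose genotype means spanned at least 1 unit, among 12124 genes. Nearest to Igfbp2 were Cyp7b1 (0.28) and Hsd3b5 (0.33), both of the male-pattern list. Nearest to Socs2 were the epidermal growth factor receptor gene Egfr (0.19) and Hsd17b6 (0.31). Cish had Rprd1a (0.19) and Clec2d (0.22), Igfbp1 had Rdh16f2 and Pxk (both 0.21), and Igfbp3 had Ehd3 (0.12) and Sod3 (0.16). These names are a description over 8 arrays that share 4 genotypes.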

How the data were processed

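The deposited table holds 1 value for each probe set on each array, taken as log2 from its range of 2.20 to 14.19. Array medians are nearly equal. The submitters' processing notes name R 2.15.0. The sources used here state neither the log base nor the background correction and summarisation. Of 22690 probe sets, 64 controls were left out. Of the other 22626, 20380 named 1 gene by the array annotation, 691 several and 1555 none. The brightest probe set stood for each of 12393 genes, with no filter. All genes were fitted by limma 3.58.1 under R 4.3.3 (lmFit, eBayes) over the 8 arrays, each genotype having its own mean, which leaves 4 residual degrees of freedom. The 5 comparisons were both SHP comparisons, both leptin comparisons and their interaction. Tests were two-sided with Benjamini-Hochberg adjustment over all genes, or over all probe sets where said. Errors are moderated SE. The number of arrays limits the precision. The script was tested on simulated data. The members, lists and alternatives were chosen with earlier results of these data known. All members are named, and up to 4 called genes of each further list and comparison by smallest adjusted p.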

Additional observations from a re-analysis of the deposited data

Results flagged for a closer look

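The effect of SHP loss on Irs2, the docking protein of the insulin and IGF-I receptors, differed between leptin-null and leptin-intact mice by 1.66 ± 0.28 in limma's interaction test (adjusted p = 0.0202). The call was lost without either wild-type array, either OB-/- array or OB-/-/SHP-/- replicate 1 (adjusted p up to 0.130). For Sult3a1, a sulfotransferase of the female growth hormone pattern, the same interaction was 4.51 ± 0.38 (adjusted p = 1.1e-04). Sult3a1 read 2.91 to 3.31 on the 4 leptin-intact arrays, below 4.83, the 40th percentile of probe set means. An effect of SHP loss with leptin present could hardly be seen there, so the size of this interaction is uncertain. It read 6.24 and 5.29 on the OB-/- arrays and 10.55 and 10.18 on the OB-/-/SHP-/- arrays.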

How the results depend on the processing

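The counts of members below have no share of all genes under the same alternative beside them. They do not tell a change of the members from a change of the whole background. With a minimum change of 1.5-fold, 2 members passed in OB-/- against wild-type and 2 in OB-/-/SHP-/- against SHP-/-. Leaving out OB-/- replicate 1 and SHP-/- replicate 1 together, an alternative chosen after seeing the data, gave 3 in OB-/-/SHP-/- against SHP-/- and 1 in OB-/-/SHP-/- against OB-/-, Igfbp1. That last count was also 1 with eBayes with trend, with only the 4 arrays compared and with the replicate number as a block. Deviations of same-numbered arrays correlated at -0.11 to 0.20 across genes, so the numbers are not taken to pair the arrays, and the block moved no other count of members. With single arrays left out, the counts were 4 to 6 in OB-/- against wild-type, 3 to 5 in OB-/-/SHP-/- against SHP-/-, 0 to 1 in OB-/-/SHP-/- against OB-/- (1 without either SHP-/- array) and 0 to 1 for the interaction (1 without SHP-/- replicate 2, Igfbp3). The lowest, 3, came without SHP-/- replicate 1 or OB-/-/SHP-/- replicate 2. Igf1 passed in OB-/- against wild-type in 9 of 20 alternatives and lost its call in OB-/-/SHP-/- against SHP-/- in 12 of 20; quantile normalisation did both (adjusted p = 0.0483 and 0.0544). Hnf4a in OB-/- against wild-type reversed to 0.14 with the mean of its probe sets and to 0.28 without x_at, s_at and a_at probe sets; the cause was not tested. Under the latter 4 members, Ghr, Stat5b, Igfbp2 and Igfbp4, have no probe set left. Of 30 differences with an unadjusted p of at least 0.05, 21 changed sign in some alternative and 0 passed. No alternative took a dimmer probe set of Stat5b or Igfbp4 by itself. Such probe sets, given above, did pass in some of these comparisons.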

Other observations

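Igfbp1 and Igfbp3 are neighbours on chromosome 11 of GRCm38.p6, and their levels moved in opposite directions in OB-/- against wild-type. Cyp2b9 and Cyp2b13 of the female-pattern list, named after their values were seen, read 4.34 and 4.55 in OB-/-/SHP-/- replicate 1 and 10.74 and 10.31 in replicate 2, while Socs2 read 5.04 and 5.56 on these arrays and Igfbp2 6.95 and 7.54.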
